A study of Mus musculus with 16 samples.

Results

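The casein genes were described as a family of 5 members: Csn1s1, Csn1s2a, Csn1s2b, Csn2 and Csn3. They were taken by symbol from the GENCODE M21 annotation, and the deposited estimated read counts and length-scaled TPM (transcripts per 1000000) of their transcripts were summed per gene. All 5 were among the 22196 genes with a listed transcript, and all 5 were among the 12506 genes that passed the filter on low counts. The samples were 16 RNA sequencing libraries of total RNA from whole inguinal mammary gland of mice in mid-lactation, with 4 libraries in each of 4 groups. HFD metformin glands came from the high fat diet with metformin, an antidiabetic biguanide drug, and HFD control glands from the same diet with the control treatment. NCD metformin and NCD control glands came from the diet labelled NCD, with metformin and with the control treatment. Every library carried the age label postnatal day 16, without saying whose age it is. The labels used here give no strain, genotype or dose, do not expand NCD, and do not say that each library came from a separate animal, so every p-value here reflects how far these libraries spread, which may be technical.

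Caseins are the main proteins of milk and are made by the secretory luminal cells of the lactating mammary gland. Csn1s1, Csn1s2a, Csn1s2b and Csn2 encode the alpha-S1, the paired alpha-S2-like and the beta caseins, whose phosphorylated serines bind calcium phosphate. Csn3 encodes kappa casein, which sits on the surface of the casein micelle and keeps it in suspension. Their transcription is driven by prolactin through its receptor, the kinase Jak2 and the factor Stat5, together with glucocorticoid receptor.

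The 5 genes lay in 1 cluster that spanned 266458 bases of chromosome 5 in GRCm38. In the annotation, Csn1s1 ran from 87666208 to 87682578 on the plus strand and Csn2 from 87692624 to 87699630 on the minus strand. Csn1s2a ran from 87774567 to 87788797, Csn1s2b from 87808082 to 87824426 and Csn3 from 87925579 to 87932665, all on the plus strand. The main transcript held 942 coding bases in Csn1s1, 696 in Csn2, 555 in Csn1s2a, 432 in Csn1s2b and 546 in Csn3. The longest exact run of coding bases that any pair of these genes shared was 9 to 15 bases.

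The promoters of Csn1s1 and Csn2 are printed because these neighbours had the most similar levels across libraries and both hold a STAT-type palindrome. RefSeq (GRCm38.p6) gave Csn1s1 the window chr5:87665958-87666257 on the plus strand and Csn2 the window chr5:87699376-87699675 on the minus strand, each from 250 bases before the start to 50 bases after it. Capitals mark the 9-base motif TTCNNNGAA, which reads the same on both strands.
Csn1s1: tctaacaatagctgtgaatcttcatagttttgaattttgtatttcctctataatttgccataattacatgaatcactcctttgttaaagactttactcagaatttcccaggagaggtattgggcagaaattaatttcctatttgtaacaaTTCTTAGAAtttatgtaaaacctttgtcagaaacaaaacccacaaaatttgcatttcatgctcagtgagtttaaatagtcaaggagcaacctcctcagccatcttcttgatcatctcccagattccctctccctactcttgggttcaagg
Csn2: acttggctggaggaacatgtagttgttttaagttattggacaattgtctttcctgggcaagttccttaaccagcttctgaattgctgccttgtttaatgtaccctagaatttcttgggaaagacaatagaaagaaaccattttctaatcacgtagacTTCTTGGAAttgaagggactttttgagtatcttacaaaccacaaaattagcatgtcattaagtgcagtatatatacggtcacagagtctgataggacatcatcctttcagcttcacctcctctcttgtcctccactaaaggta
The motif began 100 bases before the RefSeq start of Csn1s1 and 93 bases before that of Csn2, while in Csn1s2a it began 20 bases after the RefSeq start. RefSeq and GENCODE give Csn1s1 the same start, but place that of Csn2 205 bases and that of Csn1s2a 117 bases apart. Counted from the GENCODE gene starts given above, the motif began 97 bases before the start in Csn1s2a and 112 bases after it in Csn2. It was found in 2726 of all 32851 promoter windows of the same length, or 8.3%. A match is a description of the letters, not a measured binding site. Promoters of Csn1s2b and Csn3 were not analysed here.

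Library totals ran between 8649318 and 39156650 estimated counts with a median of 28944281, and HFD control replicate 4 was the shallowest. All 8 luminal epithelial markers were detected in every group, and no marker of any list was at 0 in a whole group. The summed luminal markers reached 424 to 543 CPM (counts per 1000000) in HFD metformin, 383 to 483 in HFD control, 362 to 402 in NCD metformin and 408 to 469 in NCD control. Skeletal muscle markers summed to 0.626 to 122 CPM in HFD metformin, 0.939 to 16.9 in HFD control, 0.686 to 24.1 in NCD metformin and 0.985 to 3330 in NCD control, where replicate 3 was the highest. Adipocyte markers summed to 240 to 598 CPM in HFD metformin, 217 to 335 in HFD control, 374 to 863 in NCD metformin and 173 to 1000 in NCD control. In whole tissue, fewer luminal cells and less casein RNA per cell cannot be told apart.

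Casein transcripts made up about as many counts of each library as all other genes together. The 5 genes took 53.4% ± 2.36 of the counts in HFD metformin, 51.4% ± 0.921 in HFD control, 51.1% ± 0.290 in NCD metformin and 49.8% ± 1.87 in NCD control (SD, n = 4 each). Over single libraries the share ran between 47.7% and 55.3% with a median of 51.4%, so that 0.913 to 1.24 casein counts were read for each other count. The HFD metformin libraries held 53.9%, 55.3%, 54.3% and 49.9%, and the HFD control libraries 50.2%, 51.4%, 52.4% and 51.8%. The NCD metformin libraries held 50.8%, 51.5%, 51.0% and 51.3%, and the NCD control libraries 49.2%, 50.1%, 47.7% and 52.2%. The ranges of HFD metformin and HFD control overlapped those of both NCD groups. In TPM, which divides counts by the estimated effective length of each transcript, the 4 groups were closer still. They stood at 50.9% ± 1.57, 50.9% ± 2.24, 50.5% ± 1.06 and 50.5% ± 1.52 of TPM in the same order.

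On the TPM scale, which compares genes per effective length, Csn1s2a stood highest with a mean of 13.7% of all TPM over the 16 libraries (12.8% to 14.4%). Csn2 followed with 12.1% (10.2% to 14.3%), Csn1s2b with 11.4% (9.28% to 13.7%) and Csn1s1 with 8.87% (7.82% to 10.3%). Csn3 had 4.64% (4.12% to 5.1%) and was the lowest of the 5 in all 16 libraries. Csn1s2a exceeded Csn2 in 15 of 16 libraries and Csn1s2b in 15 of 16. Csn2 exceeded Csn1s2b in only 9 of 16, so this pair of neighbours in the order did not separate beyond its spread. Csn1s1 was below Csn2 in 16 and below Csn1s2b in 15 of 16 libraries. Among all genes the caseins held TPM ranks 2 to 6. This order uses effective lengths, which averaged 138 bases in the main transcript of Csn1s2b, 244 in Csn1s2a, 400 in Csn2 and 611 in Csn1s1. All were shorter than the coding lengths given above. As shares of counts, the medians were 16.9% for Csn1s1, 15.1% for Csn2, 10.6% for Csn1s2a, 5.03% for Csn1s2b and 3.49% for Csn3.

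The make-up of the casein pool varied mainly through Csn1s2b and Csn2, the members least alike across libraries. The TPM of Csn1s2b relative to that of Csn2 ran between 0.650 and 1.34 with a median of 0.986, and both extremes were replicates on NCD. In NCD control replicate 4, Csn1s2b supplied 17.6% of casein TPM and Csn2 27.2%. In NCD metformin replicate 4, Csn1s2b supplied 27.9% and Csn2 20.9%. The other 3 NCD control libraries had 23.1% to 23.4% for Csn1s2b.

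**Figure D1:**
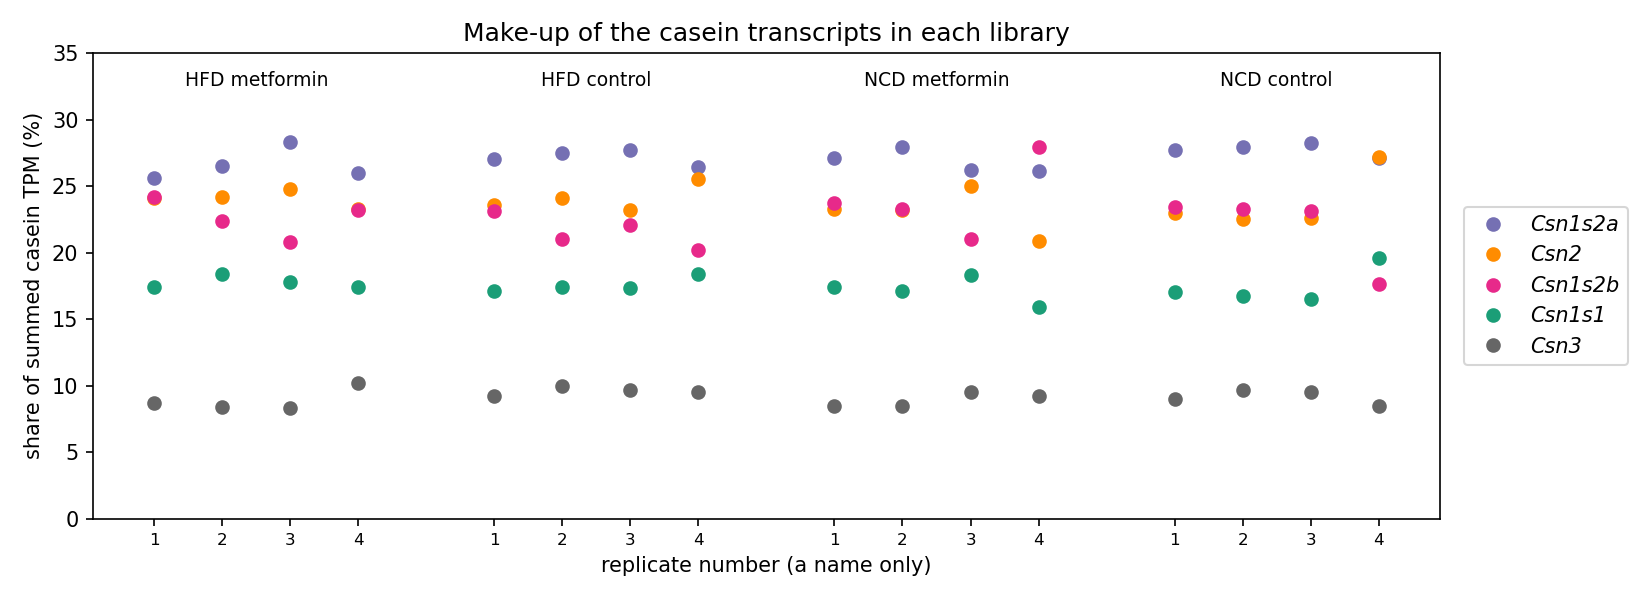
Share of the summed casein TPM (vertical axis, %) supplied by each of the 5 genes in each of the 16 libraries, grouped by diet and treatment with the replicate number below. Csn3 is the lowest point in every library, and Csn1s2b lies at 17.6% in NCD control replicate 4 and at 27.9% in NCD metformin replicate 4.

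Across the 16 libraries, log2 CPM of Csn1s1 and Csn2 followed each other with a Pearson r of 0.984, as a description. Csn1s2a had an r of 0.813 with Csn1s1 and 0.833 with Csn2. Csn1s2b had an r of 0.363 with Csn1s1 and 0.326 with Csn2. The points of such a correlation share library scaling and the large fraction of counts that caseins take. Within groups the SD of log2 CPM was 0.114 for Csn1s1, 0.12 for Csn1s2a, 0.17 for Csn1s2b, 0.131 for Csn2 and 0.102 for Csn3. The median over 332 genes with at least 100 CPM was 0.188, and 41.3% of those genes had a smaller spread than Csn1s2b, against 6.02% for Csn3.

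Set against NCD, HFD libraries had higher mean TMM-scaled levels of all 5 caseins, a direction that flipped for Csn1s2b with scaling by library size alone and for Csn1s2a and Csn1s2b on unscaled TPM, and no casein gene passed the test. Levels are given as counts per 1000 counts of a library, scaled by the trimmed mean of M values (TMM). Csn1s1 had 198, 200, 218 and 170 counts per 1000 in HFD metformin and 171, 180, 181 and 172 in HFD control, against 165, 169, 171 and 152 in NCD metformin and 142, 152, 140 and 175 in NCD control. All 8 HFD libraries exceeded the NCD mean. The sides overlapped, with NCD control replicate 4 and NCD metformin replicate 3 both above HFD metformin replicate 4.

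Csn2 had 182, 172, 201 and 149 counts per 1000 in HFD metformin and 155, 165, 158 and 154 in HFD control, against 145, 151, 151 and 129 in NCD metformin and 126, 136, 126 and 158 in NCD control. It followed the same libraries as Csn1s1, with NCD control replicate 4 again the highest NCD value. Csn3 had 39.2, 33.9, 38.7 and 39.1 counts per 1000 in HFD metformin and 36.5, 41.3, 38.9 and 34.0 in HFD control, against 31.1, 32.6, 33.9 and 33.7 in NCD metformin and 29.4, 34.8, 31.2 and 29.4 in NCD control. Its sides met between 33.9 and 34.8 counts per 1000.

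Csn1s2a had 119, 111, 137 and 103 counts per 1000 in HFD metformin and 110, 117, 115 and 97.6 in HFD control, against 103, 110, 96.0 and 98.4 in NCD metformin and 93.3, 104, 95.0 and 96.9 in NCD control. Its highest library was HFD metformin replicate 3, and the sides overlapped. Csn1s2b had 63.6, 51.8, 55.7 and 51.7 counts per 1000 in HFD metformin and 53.3, 50.7, 51.4 and 42.0 in HFD control, against 50.4, 51.8, 43.1 and 58.8 in NCD metformin and 44.5, 48.8, 43.7 and 35.6 in NCD control. Csn1s2b was the most scattered, with its lowest value in NCD control replicate 4, where Csn1s1 and Csn2 were highest among NCD controls.

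**Figure D2:**
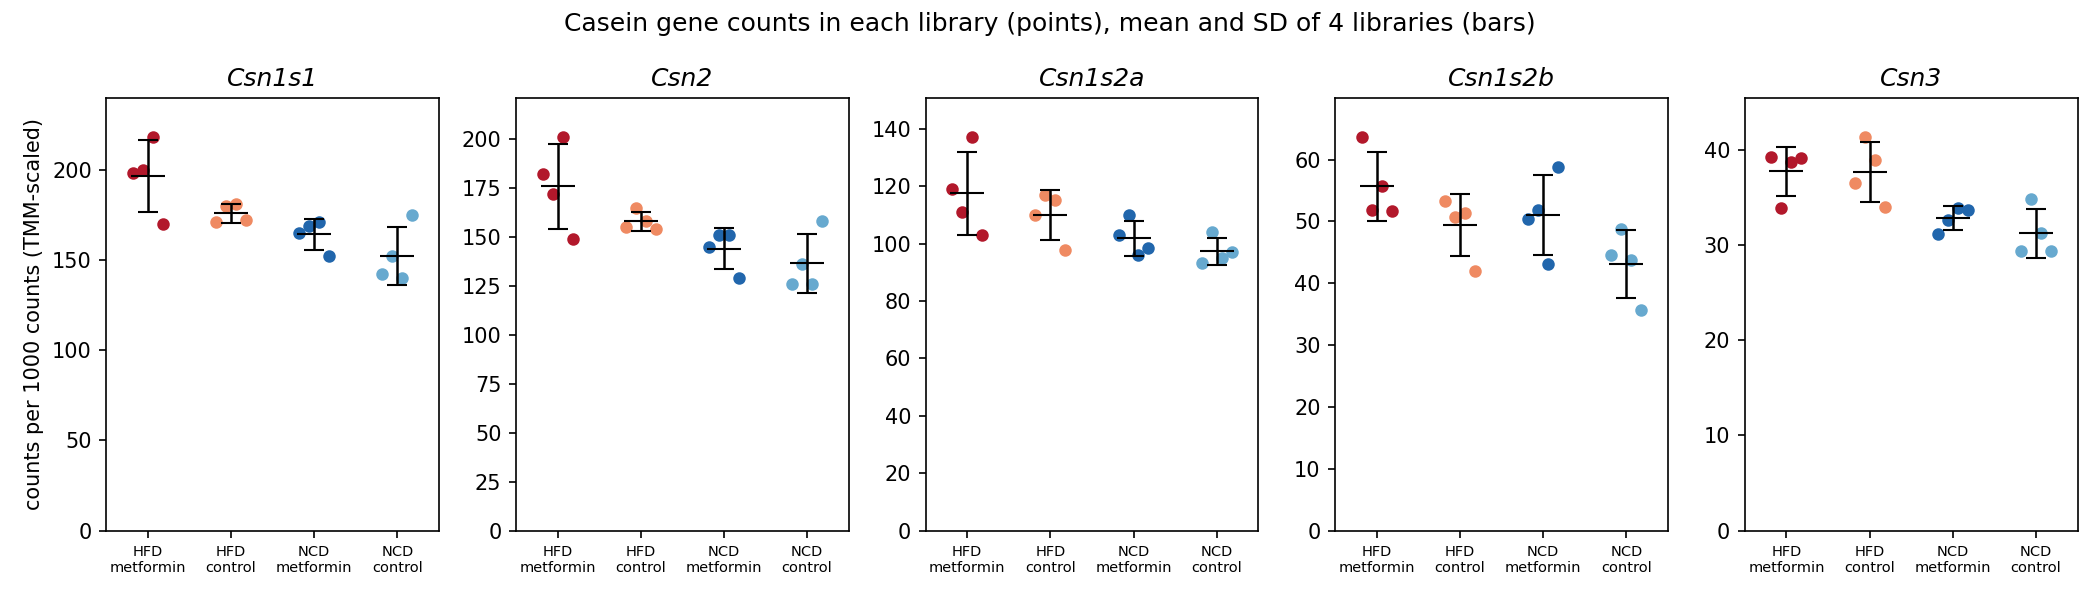
TMM-scaled counts per 1000 counts (vertical axes, from 0) of the 5 casein genes, a panel each, with a point for each library and the mean with SD of each group of 4. The 4 groups overlap in most panels, and HFD points sit above most NCD points for Csn1s1, Csn2 and Csn3.

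Averaged over both treatments, Csn1s1 reached 186 ± 17.5 counts per 1000 on HFD and 158 ± 13.5 on NCD (SD, n = 8 each). The log2 fold change of HFD over NCD was 0.24 (SE 0.0599, 95% interval 0.109 to 0.363), with an adjusted p of 0.0678 by edgeR's quasi-likelihood test. Csn2 had 167 ± 17.3 counts per 1000 on HFD and 140 ± 12.6 on NCD, a log2 fold change of 0.25 (SE 0.0662, edgeR adjusted p 0.0735). Csn3 had 37.7 ± 2.66 on HFD and 32.0 ± 2.06 on NCD, at 0.24 (SE 0.0574, edgeR adjusted p 0.0613). Csn1s2a had 114 ± 11.8 on HFD and 99.5 ± 5.66 on NCD (0.19, edgeR adjusted p 0.133), and Csn1s2b 52.5 ± 5.99 on HFD and 47.1 ± 6.97 on NCD (0.16, edgeR adjusted p 0.322).

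No casein was called, where 0.936% of the 12506 genes were, 0.520% as higher. The median casein log2 fold change was 0.24, beside 0.00 over all genes tested. The 8 luminal epithelial markers had a median of 0.25 in the same comparison, with 7 of 8 positive and none called, and the 8 adipocyte markers -0.47, with 1 of 8 positive and none called. Skeletal muscle markers were at -2.52 (0 of 9 positive), and NCD control replicate 3 was their highest NCD control library. Myoepithelial markers were at 0.06 (4 of 6 positive) and macrophage markers at -0.01 (3 of 7 positive). No marker of these lists was called. Their part in the result was not tested. The call depended on the tool and on single libraries. DESeq2's Wald test called Csn1s1 (adjusted p 0.0139), Csn2 (0.0181) and Csn3 (0.00707), and edgeR called Csn1s1 and Csn2 without HFD metformin replicate 4 (adjusted p 0.0368 and 0.0439) and Csn1s1 without NCD control replicate 4 (0.0463). Other omissions lowered the estimates. With single libraries left out, Csn1s1 ran between 0.20 and 0.27, Csn2 between 0.21 and 0.29 and Csn3 between 0.21 and 0.26. Csn1s2a ran between 0.14 and 0.22 and Csn1s2b between 0.11 and 0.19. With scaling by library size alone, the median of all genes moved to -0.17 and the caseins lay between -0.01 and 0.08. Setting the caseins against that median comes close to the TMM scaling itself, so it is no separate test. On log2(TPM + 1) without further scaling, where the median moved to -0.164, the caseins lay between -0.032 and 0.0552. The numbers in the sample titles were split into low (1 to 10) and high (14 to 26). With a term for that split, the log2 fold changes were 0.21 to 0.24 with none called. Low numbers were more frequent among NCD than among HFD libraries.

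**Figure D3:**
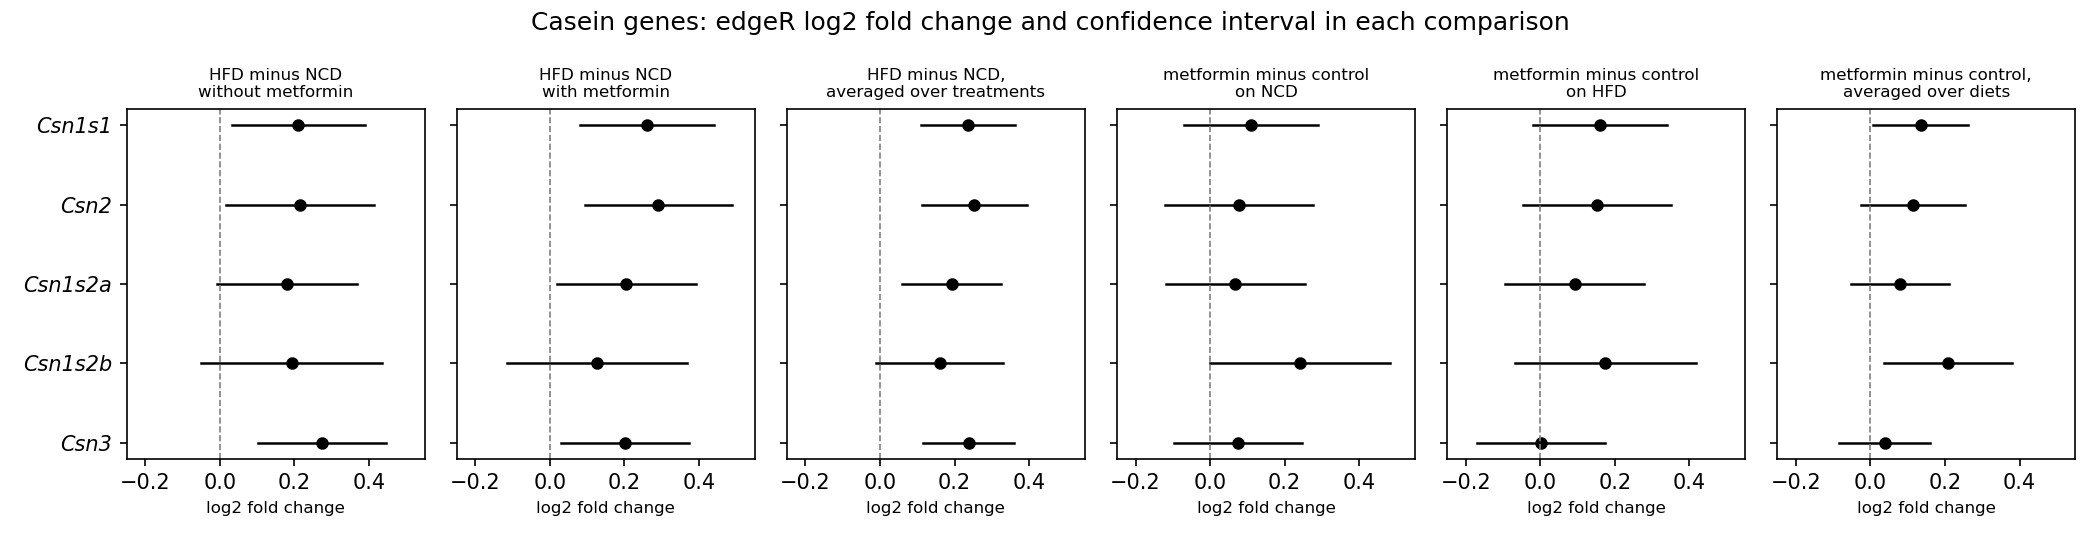
Log2 fold change (horizontal axis) of each casein gene in the comparisons of diet and of metformin, with points for the edgeR estimate and bars for the 95% interval. The averaged diet comparison has estimates between 0.16 and 0.25, and the averaged metformin comparison between 0.04 and 0.21.

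Within a treatment, all 5 estimates were again positive under TMM scaling, with wider errors. With metformin, HFD over NCD gave log2 fold changes of 0.29 for Csn2 (edgeR adjusted p 0.0996), 0.26 for Csn1s1 (0.102), 0.20 for Csn1s2a (0.211), 0.20 for Csn3 (0.176) and 0.13 for Csn1s2b (0.589). None was called, against 2.36% of all genes. Csn3 was the 1 casein whose HFD metformin and NCD metformin libraries did not overlap, by a gap too small to show at 3 digits, while 10.2% of all genes did not overlap there. Summed luminal markers also separated these groups, with 424 to 543 CPM in HFD metformin and 362 to 402 in NCD metformin, and their part in the result was not tested. Without metformin the values were 0.27 for Csn3 (edgeR adjusted p 0.344), 0.21 for Csn2, 0.21 for Csn1s1, 0.19 for Csn1s2b and 0.18 for Csn1s2a, none called against 0.0640% of all genes. Single libraries moved some of these values. Without NCD control replicate 4, Csn1s2b was at 0.10 in the comparison without metformin. In the comparison with metformin, Csn1s2b ran from 0.04 without NCD metformin replicate 3 to 0.20 without NCD metformin replicate 4, with 0.06 without HFD metformin replicate 1, and Csn1s2a was at 0.11 without HFD metformin replicate 3.

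With metformin, no casein gene passed the test against control on either diet. Averaged over both diets, Csn1s2b had 53.4 ± 6.13 counts per 1000 with metformin and 46.2 ± 5.91 with control (SD, n = 8 each), a log2 fold change of 0.21 (SE 0.0809, 95% interval 0.037 to 0.379, edgeR adjusted p 0.101). Csn1s1 had 180 ± 22.5 with metformin and 164 ± 16.9 with control, at 0.14 (edgeR adjusted p 0.147). Csn2 had 160 ± 23.3 with metformin and 147 ± 15.6 with control, at 0.12 (edgeR adjusted p 0.26). Csn1s2a was at 0.08 (edgeR adjusted p 0.42) and Csn3 at 0.04, with a 95% interval of -0.083 to 0.160. None of the 5 was called, whereas 11.4% of all genes were. On log2(TPM + 1), where the median of all genes was -0.0724, the averaged metformin estimates of Csn1s1, Csn1s2a, Csn2 and Csn3 lay between -0.0771 and -0.0027, and that of Csn1s2b was 0.103.

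On NCD, metformin over control gave 0.24 for Csn1s2b (edgeR adjusted p 0.181) and 0.07 to 0.11 for the other 4, with none called where 4.01% of all genes were higher and 6.03% lower. On HFD it gave 0.17 for Csn1s2b, 0.16 for Csn1s1, 0.15 for Csn2, 0.09 for Csn1s2a and 0.00 for Csn3, with none called against 0.168% of all genes. With single libraries left out, Csn1s2b ran between 0.16 and 0.32 on NCD and between 0.10 and 0.21 on HFD, still with none called. On NCD, Csn1s1 ran between 0.07 and 0.18, Csn1s2a between 0.03 and 0.10, Csn2 between 0.03 and 0.15 and Csn3 between 0.04 and 0.13. On HFD, Csn1s1 ran between 0.10 and 0.22, Csn1s2a between 0.0008 and 0.15, Csn2 between 0.08 and 0.22 and Csn3 between -0.05 and 0.05. The difference between the diets in the metformin effect ran from -0.07 to 0.08 over the 5 genes, with edgeR adjusted p between 0.885 and 0.975. In that interaction no gene of the 12506 was called (0%) by edgeR, 1243 genes had an unadjusted p under 0.05, and DESeq2 called 23. The comparisons within a diet or a treatment share libraries with each other and are given side by side only.

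Among casein transcripts, Csn1s2b-204 passed the metformin test although the sum of its gene did not. Csn1s2b-201 supplied a mean of 91.5% of its gene's TPM, Csn1s2b-204 6.47% and Csn1s2b-203 1.94%. Csn1s2b-204 lacks exon 6 of 12, a whole exon of 33 bases at chr5:87815094-87815126 on the plus strand. It is printed because Csn1s2b-204 was the 1 casein transcript of at least 1% of its gene that passed the metformin test. Capitals mark the exon and lower case the 15 coding bases on either side in the spliced Csn1s2b-201.
Csn1s2b exon 6: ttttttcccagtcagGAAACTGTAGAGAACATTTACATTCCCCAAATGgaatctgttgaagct
The exon length is a multiple of 3, so the reading frame continues across its absence.

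Csn1s2b-204 took 7.21%, 7.10%, 7.14% and 6.50% of the gene's TPM in HFD metformin, against 5.72%, 5.46%, 5.79% and 5.37% in HFD control. It took 7.19%, 7.66%, 7.34% and 7.50% in NCD metformin, against 5.78%, 5.89%, 5.74% and 6.11% in NCD control. Every metformin library was above every control library, on both diets. The group means were 6.99% ± 0.327 in HFD metformin and 5.58% ± 0.205 in HFD control, and 7.42% ± 0.204 in NCD metformin and 5.88% ± 0.166 in NCD control (SD, n = 4 each).

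As a level, Csn1s2b-204 was higher with metformin than with control by a log2 fold change of 0.53 averaged over diets (SE 0.0931, edgeR adjusted p 0.0111 over 18970 transcripts). Of those transcripts 2.96% were called in that comparison, and 1.75% were called higher. On NCD it was higher by 0.58 (SE 0.132, edgeR adjusted p 0.0490, 1.21% of transcripts called), a call that was lost in 16 of 20 alternatives with adjusted p up to 0.148. On HFD it stood at 0.48 (SE 0.132, edgeR adjusted p 0.248, 0.0580% of transcripts called). The difference between these diets was -0.09 (edgeR adjusted p 0.982). In all 20 alternatives the averaged call held, with values between 0.47 and 0.57 and adjusted p between 0.00811 and 0.0438. The error of dividing reads between transcripts of a gene is not part of these edgeR p-values. The alternatives changed the scaling, the filter, the title term or the libraries, so they cannot show the size of that error.

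Tested as usage, that is relative to the other transcripts of its gene, Csn1s2b-204 had a log2 difference of 0.39 with an adjusted p of 0.0798 by limma's diffSplice, so it did not pass, while 0.205% of 10749 transcripts did. This usage test was added after the values had been seen. The full-length Csn1s2b-201 had a level difference of 0.18 (edgeR adjusted p 0.258). Csn2-204 lacks exons 3 and 4 of Csn2-206 and the triplet CAG in exon 6, and holds 0.206% of Csn2. As a level, Csn2-204 was also called at 0.36 (SE 0.0882, edgeR adjusted p 0.0432), but lost the call in 18 of 20 alternatives. It is named after its value was seen, since it falls below 1% of its gene.

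Csn2 was split between Csn2-206 with a mean of 60.4% and Csn2-201 with 39.3% of the gene's TPM, and these differ by a single triplet. The triplet CAG lies in exon 6 of 9 at chr5:87696070-87696072 on the minus strand. In Csn1s2a, Csn1s2a-201 held 94.1% and Csn1s2a-203 4.36%, which differ by the triplet AAG in exon 5 of 14 at chr5:87778172-87778174 on the plus strand. Both stretches are shown because the split of each gene's reads rests on them, with the triplet in capitals and 15 coding bases on either side.
Csn2 exon 6: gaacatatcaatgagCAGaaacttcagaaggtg
Csn1s2a exon 5: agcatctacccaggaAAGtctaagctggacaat
Reads that do not cross the triplet cannot tell the pair apart, and the deposited values divide them by estimate.

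Csn2-201 took 39.4% to 40.0% of Csn2 over the 8 metformin libraries, against 38.6% to 39.1% over the 8 control libraries. Csn1s2a-203 took 4.20% to 4.32% of Csn1s2a with metformin, against 4.40% to 4.54% with control. Each set of 8 lay apart from the other, though by under 1 percentage point. The complements moved the other way, as shares of 1 gene must: Csn2-206 had 59.7% to 60.4% with metformin and 60.7% to 61.1% with control, and Csn1s2b-201 had 90.4% to 91.4% with metformin and 91.7% to 92.7% with control. Levels of Csn2-201 (0.14, edgeR adjusted p 0.277), Csn2-206 (0.09, adjusted p 0.49) and Csn1s2a-203 (0.00, adjusted p 0.995) did not pass the transcript test.

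In all, 5 of the 9 casein transcripts with at least 1% of a gene of several transcripts had shares that did not overlap between metformin and control, where 0.0521% of 23032 such transcripts did. These 5 come from 3 genes, and pairs of them are complements. The same 5 did not overlap as shares of counts. Casein genes are read more deeply than most genes, which narrows the counting error of their shares. Among transcripts of genes with at least 1000 counts in every library, 1 of 397 outside the caseins did not overlap, and with at least 10000 counts, 0 of 17. These count minimums were chosen after the values had been seen. Csn1s2b had 375907 counts even in HFD control replicate 4, so these sets do not match the caseins in depth. The part of depth in the result was not tested. The shares themselves were not tested. Between all HFD and all NCD libraries, 0 of the 9 lay apart, beside 0.0174% of the 23032. Within a treatment some did. Without metformin 2 of the 9 lay apart, beside 1.76%: Csn1s2b-201 took 92.3% to 92.7% in HFD control and 91.7% to 92.1% in NCD control, and Csn1s2b-203 took 1.76% to 1.85% in HFD control and 1.98% to 2.02% in NCD control. With metformin it was 1 of 9, beside 2.09%, where Csn1s2b-201 took 90.8% to 91.4% in HFD metformin and 90.4% to 90.6% in NCD metformin. As shares of counts, Csn1s2b-204 lay apart there too.

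**Figure D4:**
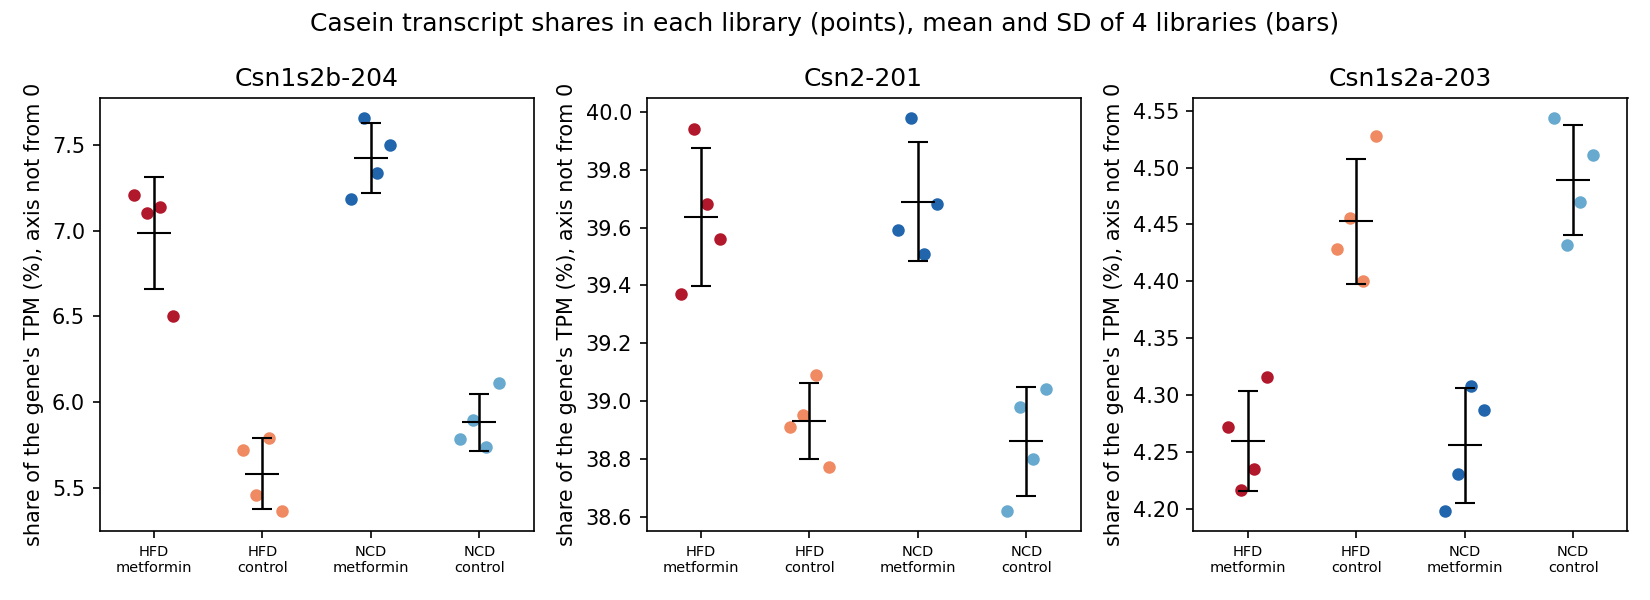
Share of the gene's TPM (vertical axes, %) held by Csn1s2b-204, Csn2-201 and Csn1s2a-203 in each library, by group, with bars for the mean and SD of each group of 4. The axes do not start at 0. The 8 metformin points of Csn1s2b-204 lie between 6.50% and 7.66% and the 8 control points between 5.37% and 6.11%.

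Csn1s1-201 held 94.8% and Csn1s1-205, which lacks 57 bases of it, 5.12% of Csn1s1, and Csn3-201 held 100% of Csn3 to 3 digits. On HFD alone the shares of 8 of the 9 transcripts did not overlap between metformin and control, beside 2.24% of all such transcripts, and on NCD 5 of 9, beside 2.60%. More transcripts of deeply read genes lay apart within a diet. Outside the caseins, 37 of 397 did on HFD and 31 of 397 on NCD in genes of at least 1000 counts, and 2 of 17 on each diet in genes of at least 10000 counts. The effective length of Csn1s2b-201, which sets TPM from counts, averaged 137 bases in HFD metformin and 140 in HFD control, and 137 in NCD metformin and 140 in NCD control. Its means thus split by treatment as the shares did, although the ranges overlapped (128 to 147 bases over all libraries). Metformin and control means split likewise in Csn1s2a-201 (242 and 246 on HFD, 242 and 245 on NCD) and Csn3-201 (234 and 238, 234 and 237). They were 611 and 611 on HFD in Csn1s1-201, and 401 and 400 in Csn2-206. As shares of counts, 9 of the 9 casein transcripts lay apart on HFD and 5 of 9 on NCD. The deposited counts also divide shared reads by estimate, so they cannot show whether effective length had a part, which was not tested.

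Of the 17 tested members of the prolactin, STAT5 and casein transcription list, 4 were lower with metformin than with control on NCD, a direction in which 6.03% of all genes were called. They were Cebpb, a C/EBP factor (log2 fold change -1.10, edgeR adjusted p 0.0244), Jak2, the kinase on the prolactin receptor (-0.61, 0.0358), Stat5b, a STAT factor (-0.71, 0.0364), and Nr3c1, the glucocorticoid receptor (-0.92, 0.048). The list's median there was -0.06. Averaged over diets none of the 17 was called for metformin, with Prlr, the prolactin receptor, at 0.38 (edgeR adjusted p 0.069). For diet none was called either, with Prlr at 0.38 (edgeR adjusted p 0.167) and Stat5a at -0.20 (edgeR adjusted p 0.233). Among the alternatives, Prlr gained a call for metformin in 2 of 26 and Stat5a for diet in 1 of 26. The luminal markers also lay apart on NCD, with summed levels of 362 to 402 CPM in NCD metformin and 408 to 469 CPM in NCD control. Their median log2 fold change was -0.27 with 1 of 8 positive, and Cldn3, a tight junction claudin, was called lower (-0.55, edgeR adjusted p 0.0315, lost in 8 of 27 alternatives). Adipocyte markers had a median of 0.50 there (8 of 8 positive, none called) and endothelial markers 0.56 (5 of 5 positive). The endothelial marker Kdr was called higher (0.75, edgeR adjusted p 0.0334). Macrophage markers were at -0.20 (1 of 7 positive) and myoepithelial markers at 0.12 (5 of 6 positive), with none called. The part of these markers in the result was not tested. On NCD, skeletal muscle markers were also called lower with metformin for 8 of 9, and NCD control replicate 3 held most of them. Without that library none of the 4 passed: Cebpb was at -0.95 (edgeR adjusted p 0.0544), Jak2 at -0.54 (0.0796), Stat5b at -0.71 (0.0605) and Nr3c1 at -0.92 (0.0775). Over 27 alternatives Cebpb lost its call in 5, Jak2 and Stat5b in 9 each, and Nr3c1 in 21.

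The casein phosphorylation, calcium and phosphate list had 16 members tested. Averaged over diets, 2 were higher with metformin than with control, the Golgi proteins Tmem165 (0.43, edgeR adjusted p 0.0327) and Atp2c2, a calcium and manganese pump (0.28, 0.0453), where 5.82% of all genes were higher and 5.57% lower. Lower were Slc20a2, a phosphate transporter (-0.36, 0.00682), and Nucb2, a calcium-binding protein (-0.45, 0.0153). Slc20a2 and Nucb2 held their calls in all 26 alternatives, whereas Tmem165 lost its call in 11 and Atp2c2 in 18, both also without NCD control replicate 3 (adjusted p 0.0529 and 0.0525). The list's median was -0.01, and no member was called for diet by edgeR. On NCD alone, where 4.01% of all genes were higher and 6.03% lower, Tmem165 (0.64, edgeR adjusted p 0.0299) and Atp2c2 (0.40, 0.0462) were higher and Nucb2 was lower (-0.53, 0.0352) with metformin. None of these 3 NCD calls was kept without NCD control replicate 3 (adjusted p 0.062, 0.062 and 0.0725). Fam20c, the kinase that phosphorylates caseins, had a log2 fold change of -0.24 for HFD over NCD (edgeR adjusted p 0.396). It gained a call in 2 of 26 alternatives.

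Of 11 other milk proteins, 2 were higher on HFD than on NCD averaged over treatments, a direction in which 0.520% of all genes were called: Glycam1, a mucin-like milk protein (0.84, edgeR adjusted p 0.0203), and Mfge8, of the milk fat globule membrane (0.39, 0.0384). The call of Glycam1 was lost in 1 of 26 alternatives and that of Mfge8 in 18. The list's median was 0.24, equal to that of the caseins at 2 decimals. Wap, whey acidic protein, stood at 0.31 (edgeR adjusted p 0.0957) and gained a call in 1 of 26 alternatives. Averaged over diets, 3 were lower with metformin than with control, a direction in which 5.57% of all genes were called: Glycam1 (-0.88, edgeR adjusted p 0.00383), Mfge8 (-0.39, 0.00974) and Lao1, a milk L-amino acid oxidase (-0.28, 0.0371). Glycam1 and Mfge8 held these calls in all 26 alternatives, and Lao1 lost its call in 14. That list's metformin median was -0.22, beside 0.12 for the caseins. The luminal markers had a median of -0.07 there, with Cdh1, an epithelial cadherin, called lower (-0.39, edgeR adjusted p 0.0283, lost in 4 of 26 alternatives), and their part in the result was not tested. Adipocyte markers had a median of 0.47 (7 of 8 positive) and endothelial markers 0.25 (5 of 5 positive), none called. Myoepithelial markers were at 0.05 (4 of 6 positive) and macrophage markers at -0.29 (0 of 7 positive), none called. Skeletal muscle markers were at -2.60 (0 of 9 positive, 1 called lower). The part of these markers was not tested either. Cldn3, Cdh1 and Kdr are named after their values were seen.

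The genes whose log2 CPM followed the mean casein level most closely over the 16 libraries, among 10241 compared, were Wap (Pearson r 0.892), Kyat1, a kynurenine aminotransferase (0.855), Smpdl3a, a phosphodiesterase (0.838), Folr1, a folate receptor (0.808), and Tceal8 (0.802). Within 500 kb of the caseins 49 genes are annotated, of which 21 were listed, 8 of these at 0 counts, and 4 were tested. Sult1d1, a sulfotransferase, was not called in any comparison. Odam, an ameloblast-associated protein gene between Csn1s2b and Csn3, had a log2 fold change of 0.65 for metformin over control averaged over diets (edgeR adjusted p 0.05, just outside the threshold). Odam gained a call in 4 of 26 alternatives. Prr27, next to Csn1s2b, was lower with metformin in the same comparison (-1.42, edgeR adjusted p 0.034), at under 1 CPM in every library, and lost its call in 9 of 23 alternatives. Prol1, the farthest of these 4 from the caseins (88317312 to 88328814), was lower on HFD than on NCD, with a log2 fold change of -4.15 averaged over treatments (edgeR adjusted p 0.000997). It was also lower with metformin than with control, by a log2 fold change of -2.42 averaged over diets (edgeR adjusted p 0.00674) and -3.31 on NCD (edgeR adjusted p 0.01). These 3 calls of Prol1 held in all alternatives run for them, 26, 26 and 27 in number.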

How the data were processed

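Total RNA was made into libraries with a directional kit, per the labels' protocols, and the submitters' processing notes name Salmon 1.3.0, DESeq2 1.28.1 and build GRCm38.p6. The authors deposited, for each library, estimated counts and TPM per transcript. Listed lengths equal coding lengths (56929 of 56929 compared, within 3 bases). Of 58204 transcripts, 57452 matched GENCODE M21, and the other 752 held 0.165% to 0.218% of counts.

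From these deposited estimated counts, summed per gene and rounded to whole numbers, edgeR 4.0.16 (R 4.3.3) fitted 4 group means to 16 libraries with filterByExpr, TMM scaling and the quasi-likelihood test, and Benjamini-Hochberg adjustment over 12506 genes (threshold 0.05). Transcripts were fitted the same way, without the error of dividing reads between transcripts of a gene. Usage was tested with voom and diffSplice of limma 3.58.1. Alternatives included DESeq2 1.42.0, other scalings and filters, and limma on log2(TPM + 1). Others were a term for low against high numbers in the sample titles and leaving out each library. The usage test and the alternatives for transcripts and for genes other than caseins were chosen after the data had been seen. The fit was tested on simulated counts. Intervals are at the 95% level.

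The members and lists were chosen with earlier results of these data known. Named were the 5 caseins, tested neighbours within 500 kb, up to 4 members of each pathway list with the lowest p in a comparison, the 5 most similar genes, and transcripts of at least 1% of their gene. Shares and correlations carry no test.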

Additional observations from a re-analysis of the deposited data

Results flagged for a closer look

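In 6 of 108 groups of 4 libraries, 1 library stood apart by Dixon's criterion (gap over range above 0.829). Chance flags about 1 in 20 groups, or 5.4 of 108.

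NCD control replicate 4 accounted for 3 of the 6. Csn1s1 supplied 19.63% of its casein TPM, against 16.52%, 16.66% and 16.96% in the other NCD control libraries. Csn1s2b supplied 17.65%, against 23.14%, 23.25% and 23.37%. Csn2 supplied 27.15%, against 22.5%, 22.6% and 22.97%. The shares within a library sum to a whole, so these values are not independent of each other.

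Csn3 was lowest in HFD metformin replicate 2 at 33920 CPM, where the other HFD metformin libraries had 38750, 39120 and 39220. Csn1s2b-204 had its lowest metformin share in HFD metformin replicate 4, at 6.503% of the gene's TPM, where the others had 7.104%, 7.137% and 7.21%. That value was still above every control library. Prol1 was highest in HFD metformin replicate 1 at 3.846 CPM, where the others had 0.7996, 0.804 and 0.9843.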

How the results depend on the processing

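Averaged over treatments, 0 caseins were called for HFD over NCD by edgeR, 3 by DESeq2's Wald test, and 0 to 2 with single libraries left out. No casein was called in the other comparisons under any alternative run. The summed casein share as a share of TPM was 50.9% in HFD metformin and 50.47% in NCD metformin. Over all genes, HFD against NCD averaged over treatments gave 117 calls, 1595 with library size only, 458 with DESeq2 and 44 with counts rebuilt from TPM.

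Log2 fold changes near 0 turned sign with the scaling, and the cause was not tested. On log2(TPM + 1) without further scaling, Csn1s2a was at -0.0176 for HFD over NCD without metformin, -0.0003 with metformin and -0.009 averaged. Csn1s2b was at -0.0655 with metformin and -0.032 averaged. For metformin over control on NCD, Csn1s1 was at -0.0198, Csn1s2a at -0.0488, Csn2 at -0.0442 and Csn3 at -0.0384. On HFD, Csn1s2a was at -0.0315, Csn2 at -0.0003 and Csn3 at -0.1159. Averaged over diets, Csn1s1 was at -0.0027, Csn1s2a at -0.0402, Csn2 at -0.0223 and Csn3 at -0.0771. A pseudocount of 0.1 or no filter gave the same values, apart from -0.0489 for Csn1s2a on NCD. With library size only, Csn1s2b was at -0.0547 for HFD over NCD with metformin and -0.0143 averaged, and Csn3 at -0.0732 for metformin over control on HFD and -0.0306 averaged. Csn3 in that HFD comparison was at -0.001 with DESeq2 size factors, -0.0048 when scaled on genes other than the caseins, and -0.0111 in a fit of the 2 groups alone.

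Leaving out single libraries gave -0.0502 to 0.0505 for Csn3, metformin over control on HFD. The interaction ran from -0.0216 to 0.114 for Csn1s1, -0.0693 to 0.0821 for Csn1s2a, -0.147 to 0.0156 for Csn1s2b and -0.0034 to 0.147 for Csn2. No paired analysis was possible because no label ties libraries of different groups to each other. The shallowest library had 8649318 counts, in which the low transcript Csn1s2b-202 had 157 counts and Csn2-204 2503. Of the values for single genes, transcripts and shares, 1728 kept their direction and their side of the threshold or moved by less than 1 SD, 196 lost a call with the same direction, 17 gained one, 66 shares moved by more and 77 turned sign.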
